A study of Mus musculus with 18 samples.

Results

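The Hox clusters of the mouse are 4 tandem arrays of homeobox genes, HoxA, HoxB, HoxC and HoxD, and their DNA methylation was followed here in single growing oocytes. The clusters were taken as CpGs inside 4 windows of the mm9 mouse assembly that hold the 38 member genes: HoxA at chr6:52100001-52220000, HoxB at chr11:96050001-96232000, HoxC at chr15:102745001-102872000 and HoxD at chr2:74495001-74612000. The windows span 546 kb. They contain 2615 CpGs listed in at least 1 oocyte, of which 1263 had at least 5 reads in at least 1 oocyte, out of 655582 such CpGs in the whole series. The rule that sets the windows uses no measured methylation value, but the members were chosen with earlier results of these data known.

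Reduced-representation bisulfite sequencing (RRBS), which cuts DNA at CCGG with the enzyme MspI and so samples CpG-rich fragments, was applied to 18 single oocytes of female mice. Wild-type oocytes came from Sall4fl/fl mice, in which the gene of the zinc-finger transcription factor SALL4 is flanked by loxP sites, and knockout oocytes from Sall4fl/fl;Zp3-Cre mice, in which the Zp3 promoter drives Cre in growing oocytes. Oocytes were taken at the secondary follicle (SF) stage, with 7 wild-type and 5 knockout cells, and from early antral follicles (EAF), with 4 wild-type and 2 knockout cells. The labels list postnatal days 12.5 and 17.5 for the series without tying an age to a stage in words. All groups carry the floxed allele, and the tables hold no expression values, so loss of Sall4 was not checked here. Each library is 1 oocyte and no animal is named, so each group counts as 1 sample, no difference was tested, and every SD and range describes the spread between oocytes only.

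Hox genes encode homeodomain transcription factors that give cells of the embryo their position along the body axis, and their order within a cluster follows the order of their expression domains. The clusters are unusually rich in CpG islands and are textbook targets of Polycomb and trithorax chromatin complexes, which keep them silent or active. Growing mouse oocytes gain DNA methylation from DNMT3A and DNMT3L, mostly across transcribed gene bodies, while most CpG islands stay unmethylated.

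Of the 38 members, 22 had a promoter sequence in the RefSeq table of GRCm38.p6, in 24 windows that reach from 250 bases before the transcription start to 50 after it. Each was placed in the mm9 data by the spacing of its CpGs, searching its own cluster only, and 8 promoters found a single place there. The median window held 12.5 CpGs against 6 over all 32851 promoters of the table, and the letters CCGG, which read the same on both strands, stood in 18 of 24 Hox windows (75%) against 47.1% of all. A match is only a description of the letters. Only 3 of the placed promoters, Hoxd1, Hoxa6 and Hoxa13, had CpGs with at least 5 reads in an oocyte. Their 250 bases before the start are shown because they are the members whose own promoter was read, and capitals mark the CpGs that reached 5 reads. The positions are those of the first and last CpG shared with the data over the whole window, in mm9, on the minus strand for Hoxa6 (chr6:52158627-52158782) and Hoxa13 (chr6:52210959-52211118) and on the plus strand for Hoxd1 (chr2:74600795-74601081).
Hoxd1: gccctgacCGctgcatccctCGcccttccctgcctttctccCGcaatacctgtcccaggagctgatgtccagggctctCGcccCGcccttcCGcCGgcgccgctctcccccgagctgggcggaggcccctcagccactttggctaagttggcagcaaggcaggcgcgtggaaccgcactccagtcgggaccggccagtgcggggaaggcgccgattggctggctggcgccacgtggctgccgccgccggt
Hoxa6: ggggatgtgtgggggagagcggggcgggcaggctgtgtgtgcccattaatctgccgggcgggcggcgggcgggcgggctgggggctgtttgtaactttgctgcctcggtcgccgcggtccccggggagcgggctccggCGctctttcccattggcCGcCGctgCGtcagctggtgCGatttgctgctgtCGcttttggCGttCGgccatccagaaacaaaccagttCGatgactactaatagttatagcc
Hoxa13: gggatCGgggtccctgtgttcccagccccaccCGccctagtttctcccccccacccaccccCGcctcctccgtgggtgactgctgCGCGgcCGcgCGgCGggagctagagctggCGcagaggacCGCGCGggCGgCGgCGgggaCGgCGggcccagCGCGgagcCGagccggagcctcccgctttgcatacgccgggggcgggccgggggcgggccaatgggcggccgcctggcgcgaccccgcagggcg

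The stretches show 7 such CpGs for Hoxd1, 9 for Hoxa6 and 20 for Hoxa13, and none was methylated. The Hoxd1 promoter, which belongs to an anterior gene of the HoxD cluster, was covered in 6 oocytes. At this promoter 0 of 317 read counts were methylated in SF wild-type oocyte 2, 0 of 70 in oocyte 4, 0 of 292 in oocyte 5 and 0 of 97 in oocyte 6. SF knockout oocyte 5 had 0 of 40 and EAF knockout oocyte 2 had 0 of 223. Knockout and wild-type oocytes thus had the same value, 0 of 1039 counts in all, which allows a methylated share of up to 0.289%. Hoxa6, from the middle of HoxA, was read in SF wild-type oocyte 1 (0 of 126 counts, which allows up to 2.38%). Hoxa13, the gene at the posterior end of HoxA, was read in EAF wild-type oocyte 3 (0 of 113 counts, which allows up to 2.65%). With CpGs of a single read admitted, the other 5 placed promoters were also at 0: Hoxd11 in 40 counts, Hoxd9 in 54, Hoxa5 in 19, Hoxa3 in 20 and Hoxa11 in 17. The limit for Hoxa11 is as high as 17.6%, so a low level there was not detectable at this depth. Values of 0 were common at promoters of this kind. Other autosomal promoters with 20 or more CpGs in their window, of which 3638 were placed and covered, had a level above 0 in 11.3% of 12053 values, 1 value being 1 promoter in 1 oocyte. The 8 Hox values at 0 are close to this background. Limits and intervals here cover counting error only, since the reads carry no molecular identifiers and may be PCR copies, and 1 read is counted at each CpG it spans.

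The 14 members with a listed promoter and no single place were Hoxa2, Hoxa7, Hoxa9, Hoxa10, Hoxb1, Hoxb4, Hoxb8, Hoxc4, Hoxd3, Hoxd4, Hoxd8, Hoxd10, Hoxd12 and Hoxd13. The 16 members with no entry were Hoxa4, Hoxb2, Hoxb3, Hoxb5, Hoxb6, Hoxb7, Hoxb9, Hoxb13, Hoxc5, Hoxc6, Hoxc8, Hoxc9, Hoxc10, Hoxc11, Hoxc12 and Hoxc13. Their CpGs enter the values of the clusters below, without a gene name.

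Over all oocytes the Hox windows gave 2891 CpG measurements, a measurement being 1 CpG with at least 5 reads in 1 oocyte. Of these, 2853 (98.7%) were at exactly 0, 38 were above 0, 28 were at 50% or above and 24 at 80% or above. Among autosomal CpGs outside the windows, 14.6% of measurements were at 50% or above in SF wild-type oocytes, 11.5% in SF knockout, 20.9% in EAF wild-type and 8.79% in EAF knockout oocytes. The Hox shares were 4 of 857 (0.467%), 14 of 1167 (1.20%), 3 of 467 (0.642%) and 7 of 400 (1.75%) in the same order. Because the windows are dense in CpGs, the same count was also taken over autosomal CpGs of equal density, where density is the number of CpGs seen in any library within 100 bp. CpGs of the genome that no library listed do not enter this number, so a low density need not mean CpG-poor DNA. At the density of the Hox CpGs, 359.7 measurements at 50% or above would correspond to the autosomal share, against the 28 observed. By group this was 101.5 against 4, 131.3 against 14, 88.7 against 3 and 38.1 against 7. Windows of 100 kb with a mean of 2% or below were common on the autosomes, at 40.6%, 37.1%, 32.4% and 45.4% of windows in the same order of groups, and a low mean alone does not set a cluster apart. The windows counted had at least 10 CpGs in each of at least 2 oocytes. By the same measure the Hox clusters were at 2% or below in 4 of 4, 3 of 4, 3 of 4 and 1 of 2 cases, and in the EAF knockout HoxB (0%) and HoxC (2.63%) met the minimum in 1 oocyte each.

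The Hox level of an oocyte, the mean over its Hox CpGs, was low in every one of the 18 cells. In SF wild-type oocytes 1 to 7 it was 0.422%, 0.441%, 0%, 0.952%, 2.33%, 0% and 0%. In SF knockout oocytes 1 to 5 it was 2.19%, 0.750%, 0.412%, 0.909% and 1.79%. In EAF wild-type oocytes 1 to 4 it was 1.74%, 0%, 0.240% and 0.8%, and in the 2 EAF knockout oocytes 1.75% and 1.67%. No Hox CpG was above 0 in 4 oocytes, all of them wild type, but these had only 22, 48, 60 and 175 Hox CpGs with at least 5 reads. The knockout oocytes had 69 to 351. The lowest knockout oocyte, at 0.412%, lay above 5 of the 11 wild-type cells, but the ranges of the genotypes overlapped at both stages. Summed over reads, the highest oocyte was SF knockout oocyte 5, with 253 of 5831 counts methylated (4.34%, exact 95% Clopper-Pearson interval 3.83% to 4.89%), of which 119 and 117 came from 2 HoxA CpGs.

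**Figure D1:**
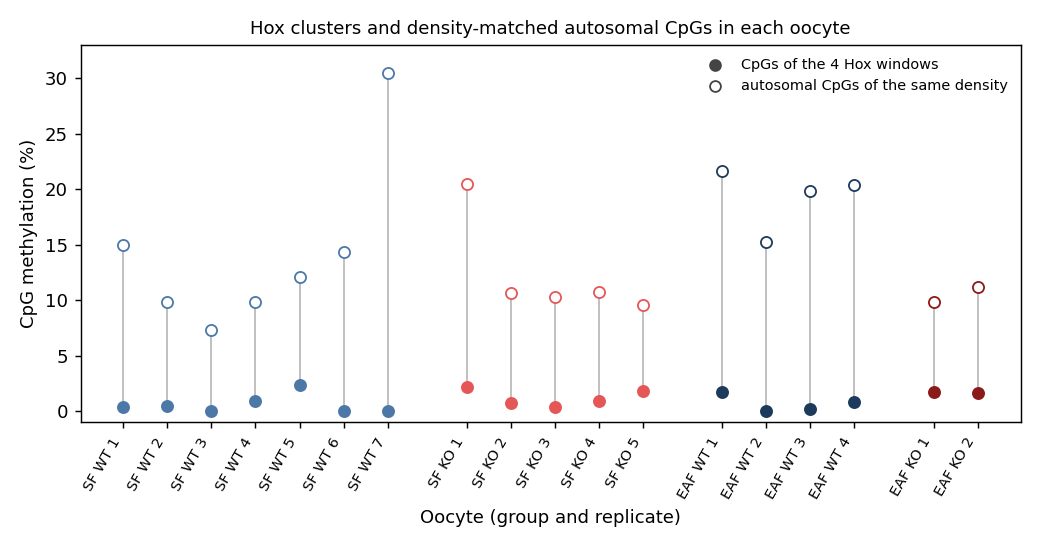
Methylation level in percent (vertical axis) of each oocyte by group, with filled points for the CpGs of the 4 Hox windows and open points for autosomal CpGs of the same density. All 18 filled points lie at or below 2.33%, and each lies below its own open point, which range from 7.33% to 30.4%.

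The density-matched autosomal level of the same cells was 14.1% ± 7.67 (SD, n = 7 oocytes) in SF wild type, 12.3% ± 4.55 (n = 5) in SF knockout, 19.3% ± 2.79 (n = 4) in EAF wild type and 10.5% ± 0.963 (n = 2) in EAF knockout. The Hox means were 0.591% ± 0.840, 1.21% ± 0.749, 0.695% ± 0.773 and 1.71% ± 0.0583. The Hox level was below the matched level in 18 of 18 oocytes, and the mean difference (Hox minus matched) was -13.5, -11.1, -18.6 and -8.78 percentage points. The EAF difference was smaller in the knockout, at -8.06 and -9.50 points, than in wild type, at -19.9 to -15.2 points, without overlap. That came with a matched level that was itself lower in the 2 EAF knockout oocytes, at 9.81% and 11.2%, than in the EAF wild-type cells, at 15.2% to 21.6%. The Hox levels of these 6 cells overlapped.

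Between genotypes the Hox mean was 0.620 points higher in the SF knockout and 1.02 points higher in the EAF knockout than in wild type. From SF to EAF it was 0.103 points higher in wild type and 0.499 points higher in the knockout. The ranges of the oocytes overlapped in all 4 comparisons. With both SF knockout oocytes 1 and 5 left out, the SF genotype difference was 0.0987 points and the knockout stage difference 1.02 points, a setting chosen after the values were seen. The EAF genotype difference took the other sign, -0.898 points, when CpGs with 1 read were admitted, since the wild-type mean was then 1.92% and the knockout mean 1.02%. With at least 10 reads it was 1.90 points, with all 4 wild-type oocytes at 0% and the 2 knockout oocytes at 1.29% and 2.51%. The other differences moved with the read minimum as well. At 1 read the SF genotype difference was 0.00620 points and the knockout stage difference -0.157 points, and at 10 reads the wild-type stage difference was -0.513 points. The signs of the EAF genotype difference and of both stage differences thus depend on the read minimum, and the SF genotype difference is near 0 at 1 read.

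Coverage differed widely between cells and moved with genotype. The number of Hox CpGs with at least 5 reads ran from 22 to 237 in SF wild-type oocytes and from 110 to 351 in SF knockout oocytes. It ran from 60 to 167 in EAF wild-type oocytes and was 69 and 331 in the 2 EAF knockout oocytes. Whole libraries held 464501 to 6518646 read counts at CpGs. Autosomal CpGs with 20 or more CpGs within 100 bp were at 0.505% to 1.89% per oocyte. The methylated share on mitochondrial DNA was above 3% in 3 oocytes, with a maximum of 5.86%. The part of depth and conversion in the genotype differences was not tested.

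Each cluster was low by itself. HoxA, whose genes pattern among others the limbs and the reproductive tract, had 8 of 783 measurements at 50% or above. HoxB had 7 of 672, HoxC 4 of 454 and HoxD, which is best known for limb and genital patterning, 9 of 982. The shares, from 0.881% to 1.04%, were close to each other. A cluster value existed for 68 combinations of cluster and oocyte, and 67 of them lay below the density-matched level. The exception was HoxB in EAF knockout oocyte 1, at 13.9% against 11.7%, which rests on 6 CpGs.

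HoxC was at 0 in every wild-type oocyte, in 142 SF and 65 EAF measurements. Taken as independent, the 207 measurements at 0 would allow a share of up to 1.45% above 0. Many are neighbouring CpGs of the same oocyte, so the true limit is wider. In the EAF knockout its 2 oocytes were at 0.521% and 2.63%, above the 4 wild-type oocytes at 0%. The value of 0.521%, in EAF knockout oocyte 1, rests on 8 CpGs, of which 1 was above 0, at 4.17%. In the SF knockout oocytes 1 and 2 were at 1.97% and 1.30% and the other 3 at 0%, as in all 7 wild-type cells. HoxA was at 2.36% ± 2.43 (SD, n = 5 oocytes) in the SF knockout and 0.771% ± 1.35 (n = 7) in SF wild type, with overlapping ranges. HoxD was at 1.23% and 3.00% in the 2 EAF knockout oocytes, and in EAF wild type at 0% in 3 oocytes and 1.61% in the fourth, so these ranges overlapped.

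**Figure D2:**
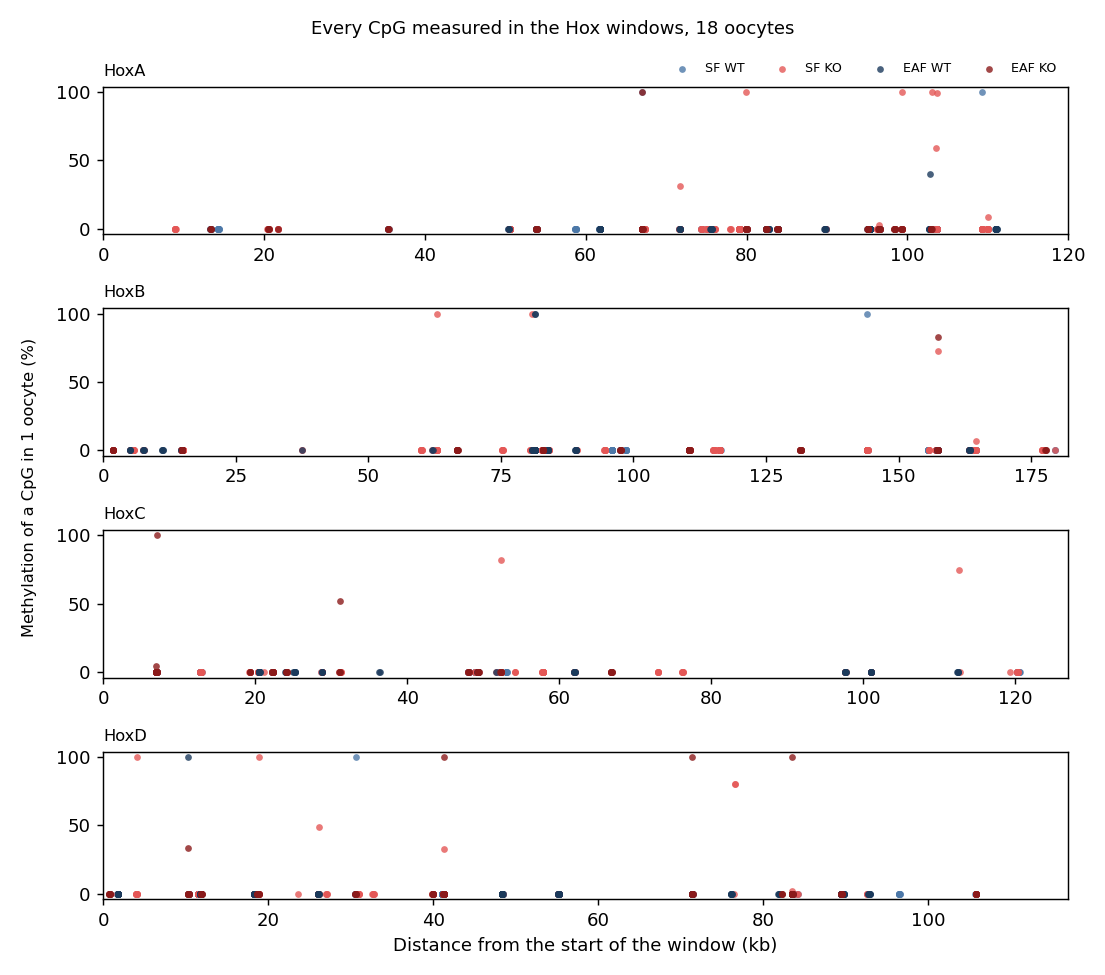
Methylation of every Hox CpG measurement in percent (vertical axis) against distance from the start of each cluster's window in kb (horizontal axis), 1 panel per cluster, with colours for the 4 groups. The 2853 measurements at 0 form a floor along all 4 windows, and the 28 at 50% or above are scattered over all 4 clusters.

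Sorted by density, the densest Hox CpGs held no methylated read. With 20 or more CpGs within 100 bp, all 386 Hox measurements were at 0, over 12013 counts. Autosomal CpGs of this class were low as well, at 1.11% ± 0.395 (SD, n = 7 oocytes), 0.784% ± 0.284 (n = 5), 1.08% ± 0.203 (n = 4) and 0.526% ± 0.0293 (n = 2) in the groups as ordered above (SF wild type first, EAF knockout last). At lower density the Hox means lay far below the autosomal ones. With 10 to 19 CpGs within 100 bp, Hox means were 0.412%, 0.883%, 0.222% and 0.840% against 13.6%, 12.7%, 19.0% and 10.9% on the autosomes. With 5 to 9 they were 0%, 2.69%, 1.82% and 3.41% against 20.3%, 15.7%, 26.7% and 13.0%. With 1 to 4, where the 205 Hox measurements are few, 2 were at 50% or above, both in SF wild-type oocytes.

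**Figure D3:**
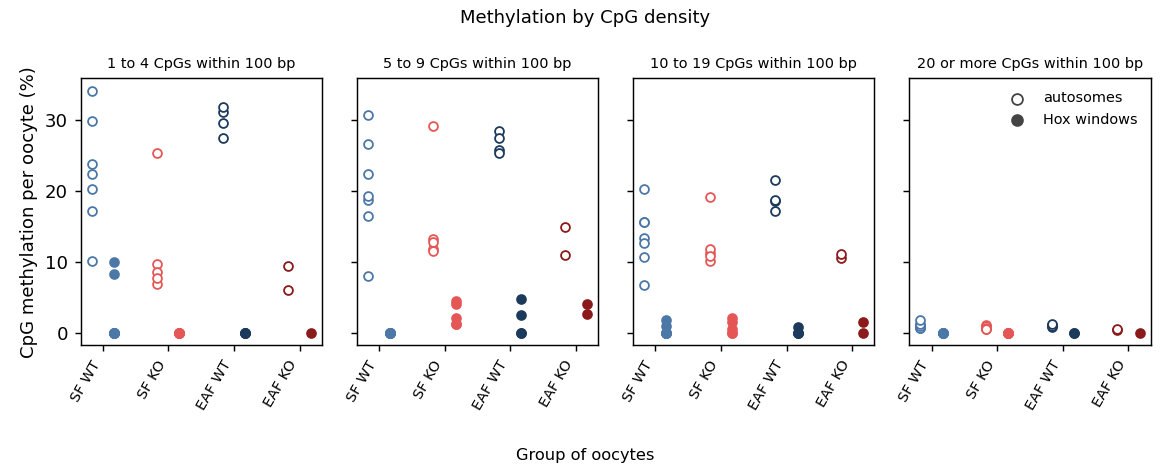
Methylation level of each oocyte in percent (vertical axis) by group (horizontal axis), in 1 panel per class of CpG density, with filled points for Hox CpGs and open points for autosomal CpGs. In the class of 5 to 9 the autosomal points lie between 8.11% and 30.6% and the Hox points between 0% and 4.76%, and in the class of 20 or more the autosomal points lie between 0.505% and 1.89% and all Hox points at 0%.

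In the class of 5 to 9 the 5 SF knockout oocytes were at 4.12%, 1.33%, 1.27%, 4.55% and 2.17%. All 7 SF wild-type oocytes were at 0%, so the groups did not overlap. Of the measurements, 9 of 359 (2.51%) were at 50% or above in the knockout and 0 of 171 in wild type. A count of 0 would allow up to 1.75% if measurements were independent, and more since many are neighbouring CpGs of the same oocyte. The wild-type cells had only 7 to 61 such CpGs each, and the knockout cells 22 to 123. On the autosomes the same class was lower in the SF knockout (15.7%) than in wild type (20.3%). Among 36 comparisons of Hox levels by cluster, density class and group, this and HoxC at the EAF stage were the 2 whose ranges did not overlap. At HoxC the separation of EAF knockout oocyte 1 from wild type rests on 1 CpG at 4.17%.

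The 28 methylated Hox measurements were at 28 different CpGs. At 22 of them another oocyte was covered, in 21 of these every other oocyte was at 0, and in none was another oocyte at 50% or above. On the autosomes, of CpGs covered in at least 2 oocytes of a group and at 50% or above in at least 1, 49.7% were so in at least 2 oocytes in SF wild type, 34.2% in SF knockout, 56.6% in EAF wild type and 27.9% in EAF knockout. The corresponding Hox counts were 0 CpGs in SF wild type, 0 of 6 in SF knockout, 0 of 2 in EAF wild type and 0 of 2 in EAF knockout. These counts are small. In SF wild type 183 and in SF knockout 256 Hox CpGs were covered in at least 2 oocytes.

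Methylated Hox CpGs also stood alone along the DNA. The nearest CpG measured in the same oocyte was within 100 bp for all 28, and it was at 0 for 26 of them. The other 2 were each other's neighbours, chr2:74571551 and chr2:74571569 in SF knockout oocyte 1, with 4 of 5 reads methylated at each. Both are 2 of the 5 methylated measurements of that oocyte, and without it the SF knockout had 9 of 914 (0.985%). At chr2:74536342 in HoxD, EAF knockout oocyte 2 had 39 of 39 reads methylated, and the CpG 11 bp away had 0 of 39. At chr6:52203685 in HoxA, SF knockout oocyte 5 had 119 of 120 reads methylated with 0 of 201 at a CpG 6 bp away, and 3 other oocytes were at 0 there. At chr15:102752058 in HoxC, EAF knockout oocyte 2 had 36 of 36 and 4 other oocytes were at 0. At chr6:52209227 SF wild-type oocyte 1 had 11 of 11, with 3 other oocytes at 0. These 4 sites were picked as examples after their values were seen. In 19 of the 28 every read was methylated.

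**Figure D4:**
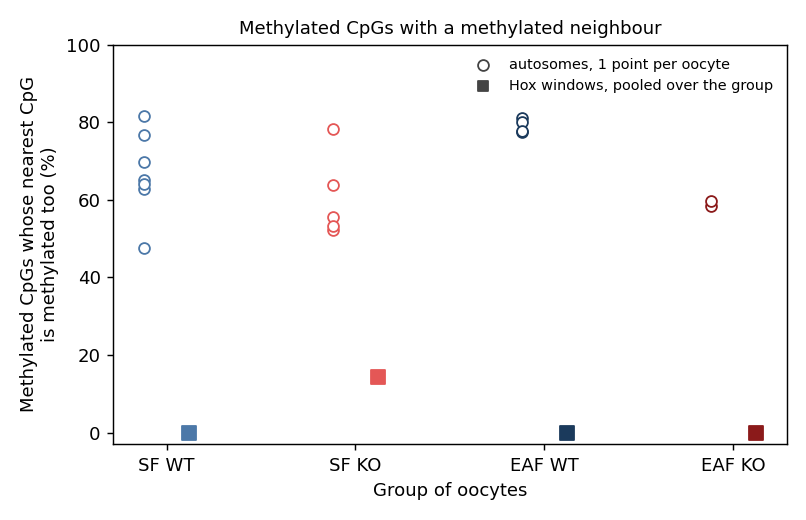
Share in percent (vertical axis) of CpGs at 50% or above whose nearest measured CpG within 100 bp was also at 50% or above, by group, for autosomal CpGs of each oocyte and for the Hox CpGs of each group. The autosomal points lie between 47.5% and 81.6%, and the Hox values are 0% in 3 groups and 14.3% (2 of 14) in the SF knockout.

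On the autosomes, the nearest measured CpG of a methylated CpG was itself at 50% or above in 47.5% to 81.6% of cases per oocyte. The number of lone methylated CpGs, those at 50% or above beside a CpG at 0, was then set against CpGs of the same density. Lone CpGs made up 26 of 2858 Hox measurements with a neighbour (0.910%) against 2.02% on the autosomes, which would correspond to 57.9. The Hox shares were 0.469%, 1.05%, 0.652% and 1.75% in the 4 groups, again from SF wild type to EAF knockout, against 2.17%, 1.94%, 2.06% and 1.93%. The Hox share was at or below the autosomal one in 17 of 18 oocytes. Lone methylated CpGs were thus no more frequent in the Hox windows than elsewhere, and neighbouring CpGs at 50% or above in the same oocyte were seen at 1 pair in HoxD.

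Tiles of 1 kb, counted where an oocyte had at least 3 CpGs of at least 5 reads, gave the same picture. Of the Hox tiles covered, 47 of 51 were at 0 in SF wild type, 64 of 81 in SF knockout, 41 of 44 in EAF wild type and 37 of 45 in EAF knockout, against 54.4%, 60.8%, 54.8% and 66.1% of autosomal tiles. A group mean of 20% or more was seen in 2 of 51, 2 of 81, 0 of 44 and 0 of 45 Hox tiles in the same order. On the autosomes it was seen in 29.4%, 21.8%, 33.7% and 19.8% of tiles. These counts include tiles covered in 1 oocyte, as many Hox tiles were. No Hox tile had a group mean of 20% or more over at least 2 oocytes. Tiles were compared where at least 2 oocytes of each group covered them, and a difference of 10 points or more was counted. In the SF genotype comparison 0 of 7 Hox tiles differed so far, while 17.9% of autosomal tiles were lower and 11% higher in the knockout. In the EAF genotype comparison 0 of 1 did, against 30.8% lower and 7.21% higher. Between stages 0 of 4 did in wild type, against 8.19% lower and 20.5% higher in EAF, and 0 of 2 in the knockout, against 16.8% lower and 6.66% higher. With so few tiles these counts of 0 carry little weight. The largest differences were at chr2:74578001-74579000 in HoxD, at 3.85% in EAF and 0.0687% in SF knockout oocytes, and, in the SF genotype comparison, at chr11:96207001-96208000 in HoxB (1.07% in knockout, 0% in wild type) and chr2:74536001-74537000 in HoxD (1.02% and 0%).

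The most widely read stretches of the clusters were free of methylated reads in both genotypes. In HoxD, 14 CpGs at chr2:74506717-74506832 were each read in 8 oocytes (4 SF wild-type, 3 SF knockout and 1 EAF wild-type) with 0 of 3096 counts methylated. Taken as independent, these counts would allow up to 0.0969%. The true limit is wider, since 1 read is counted at each CpG it spans and all counts come from 8 cells. A further 7 CpGs at chr2:74584504-74584574 were read in 8 oocytes of all 4 groups, with 0 of 1048. In HoxA, 3 CpGs at chr6:52182468-52182488 were read in 2 oocytes of each group, with 0 of 309. The last of these has only 5 CpGs seen in any library within 100 bp, and its number of CpGs in the genome may be higher.

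Outside the windows, the levels of the flanks varied widely between cells. In the first 50 kb on either side, the mean was 6.95% ± 9.64 (SD, n = 7 oocytes) in SF wild type, 1.02% ± 1.75 (n = 5) in SF knockout, 12.2% ± 16.2 (n = 4) in EAF wild type and 0% in both EAF knockout oocytes. Of the flank measurements, 22 of 188 were at 50% or above in SF wild type, 3 of 228 in SF knockout, 9 of 74 in EAF wild type and 0 of 63 in EAF knockout. The highest oocyte reached 22.9% in SF and 35.3% in EAF wild type, and in all 4 groups the mean was below the density-matched level of 16.5%, 11.3%, 22.7% and 6.75%. Ranges overlapped in both genotype comparisons. The share at 50% or above in these flanks was 11.7% in SF and 12.2% in EAF wild type, against 0.467% and 0.642% inside the windows of the same cells. In the knockout it was 1.32% in SF and 0% in EAF, against 1.20% and 1.75% inside the windows. The flank share was thus above the window share in the SF knockout too, by little. It was below the window share only in the EAF knockout, where it rests on 0 of 63 measurements in 2 oocytes. Single oocytes carried much of these values. Without EAF wild-type oocyte 3 the EAF wild-type mean was 4.44% and its share 3 of 57 (5.26%). Without SF wild-type oocyte 1 the SF wild-type mean was 4.30% and its share 11 of 139 (7.91%), and 4 of the 7 SF wild-type oocytes were at 0%. Without SF knockout oocyte 3 the SF knockout mean was 0.266% and its share 1 of 179 (0.559%).

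Promoters of genes that act with or upstream of Hox genes were placed by the same matching, but over their whole chromosome, for 4 lists. Of the TALE homeodomain cofactors that bind DNA with Hox proteins, 2 of 9 were covered (Pbx2 and Meis1), and 7 of 7 values were at 0. Of the upstream regulators, 2 of 12 were covered and 8 of 9 values were at 0. The exception was Gbx2, a homeobox gene of the boundary between midbrain and hindbrain, at 20% in SF knockout oocyte 1 (66 of 367 counts) and at 0% in the 7 other oocytes that covered it. Of the Polycomb and trithorax genes, 7 of 13 were covered and 16 of 18 values were at 0. Rnf2, a catalytic subunit of Polycomb complex 1, was at 8.33% in SF wild-type oocyte 3 and at 0% in 4 others, and Jarid2 was at 0.952% in SF wild-type oocyte 5 and at 0% in 3 others. Of the homeobox genes outside the clusters, 4 of 17 were covered and 20 of 22 values were at 0. Dlx2 was at 8.33% in SF knockout oocyte 2 and Dlx1 at 6.67% in EAF wild-type oocyte 3, both at 0% elsewhere. The median was 0 for every list and group with values, except for the upstream regulators in the SF knockout, where the only value is that of Gbx2. The share at 0 over all other autosomal promoters with 20 or more CpGs was 88.7%, so the lists and the 8 Hox values, all at 0, are not set apart from CpG-rich promoters in general by these counts.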

How the data were processed

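RRBS libraries of 18 single oocytes were analysed. Per the labels' protocols, DNA was cut with MspI, bisulfite converted, amplified by PCR and size selected, and the submitters' processing notes name BSMAP 2.89 and build mm9. Per the file headers, the deposited tables give for each CpG the count of all reads and of methylated reads over both strands, and a ratio, a fraction from 0 to 1, which was checked to equal the quotient of these counts. The authors' filters were not given in these sources, and reads of the lambda DNA added as conversion control were not analysed here.

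CpGs with at least 5 reads were kept. An oocyte's level is the mean over its CpGs, and group values are means over oocytes. The matched level averages autosomal CpGs of the same density (densities of 30 or more pooled) outside the windows. RefSeq promoters (GRCm38.p6) were placed where every CpG of the data in a 300-base window is a CpG of the sequence, with at least 5 shared (8 for other lists) and a lead of 3 over the next place. Hox promoters were searched for inside the window of their cluster only, and all others over their chromosome. No coordinates were converted. Whole libraries and Hox windows held 464501 to 6518646 and 204 to 8656 counts per oocyte, respectively. An oocyte's lowest detectable share at Hox CpGs (3 counts) thus lay between 0.0347% and 1.47% if counts were independent. Since 1 read is counted at each CpG it spans, the true limits are wider. Groups follow the labels, and no comparison was tested, since each group counts as 1 sample. No 2 of the 153 pairs of libraries were identical. Same-numbered oocytes did not deviate together (r from -0.0851 to 0.0584, with 0 of 13 pairs above 0.1), so numbers were not taken as pairs. The matching was run on simulated data in which each CpG was drawn independently, at a level set by its density class. Such data cannot show how matching performs where methylation is clustered along the DNA. Alternatives were other read minimums, weightings, densities, tiles and left-out oocytes.

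Named were all placed members, tiles at 20% or more over at least 2 oocytes and those with the largest differences, and the exceptions of each list. Members and lists were chosen with earlier results of these data known. Windows of 100 kb, flanks, neighbours, recurrence and the background of other promoters were added after values were seen. Computations ran in Python 3.11.15 (pandas 2.3.3, numpy 2.4.6 and, for exact Clopper-Pearson intervals, scipy 1.17.1), with plots by matplotlib 3.10.9.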

Additional observations from a re-analysis of the deposited data

Results flagged for a closer look

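Within groups of 4 to 7 oocytes, single cells lay far from the rest of their group, by a gap that took up most of the group's range. The rule passes about 1 in 20 groups by chance, and it passed 11 times among 23 groups looked at over 8 measures, several of which share the same cells and many of which are at 0 in all but 1 oocyte. SF wild-type oocyte 5 had the highest Hox level of its group (2.33%) and so the highest share of Hox CpGs at 50% or above (2.33%), and its HoxD level was 3.33%, all from 1 CpG with 18 of 18 reads methylated. SF wild-type oocyte 7 had the highest density-matched level (30.4%) and the largest gap of the Hox level to it (-30.4 points), over 22 Hox CpGs. SF knockout oocyte 1 had the highest density-matched level of its group (20.4%) and a gap of -18.2 points. EAF wild-type oocyte 2 had the smallest gap of its group (-15.2 points), over 60 Hox CpGs. Single CpGs set apart HoxB in SF wild-type oocyte 2 (1.43%), HoxA in EAF wild-type oocyte 3 (0.702%) and HoxD in EAF wild-type oocyte 4 (1.61%), where the other oocytes were at 0%.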

How the results depend on the processing

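The spread between oocytes was larger than the SF genotype difference itself (0.805 against 0.620 points). It was also larger than the stage differences (0.819 against 0.103 points in wild type, 0.670 against 0.499 in the knockout). For the EAF genotype the spread was smaller than the difference (0.670 against 1.02 points). Leaving out 1 oocyte cannot move a group's gap to the matched level by more than its own spread. Nor can a tile count at 20 points exceed the count of 0 at 10 points. The number of values that stayed is thus no measure of stability. Of the alternative values, 140 moved by less than the spread between oocytes or stayed within 1.5 times of a count, changes of sign in both stage differences included. A further 11 moved more than that. For the EAF genotype difference in the Hox level, these were -0.898 points with at least 1 read per CpG, 1.90 with at least 10 reads and 2.23 for the mean of the 4 clusters, and for the knockout stage difference 1.55 for the mean of the 4 clusters. The gap to the matched level moved to -15.6 points in EAF wild type with at least 10 reads and to -10.0 in EAF knockout with at least 1 read, and stayed negative in every setting. The counts of tiles that differed by 10 points or more moved from 0 to 2 of 37, 1 of 6, 2 of 23 and 2 of 11 at 1 read (SF genotype, EAF genotype, wild-type stage, knockout stage), and to 1 of 9 for the SF genotype with 1 CpG per tile. The share of autosomal tiles that differ so far was not counted at these 2 settings, so no result about the clusters is drawn from these counts. Leaving out 1 oocyte at a time, the genotype differences ranged from 0.374 to 0.909 points (SF) and 0.784 to 1.36 (EAF), and the stage differences from -0.245 to 0.392 (wild type) and 0.299 to 0.745 (knockout). The gaps ranged from -14.6 to -10.7, -12.0 to -9.34, -19.7 to -18.1 and -9.50 to -8.06 points (wild type then knockout, SF before EAF), and tile counts were 0 wherever a tile was still covered. None was left for the EAF genotype without EAF wild-type oocyte 3 or 4 or either knockout oocyte, for the wild-type stage without EAF wild-type oocyte 4, or for the knockout stage without either EAF knockout oocyte. With the replicate number as a block, the SF genotype, EAF genotype, wild-type stage and knockout stage differences were 0.383, 0.840, 0.241 and 0.239 points. The cause of these moves was not tested. No Hox CpG was covered in every oocyte of a comparison, so differences over shared CpGs could not be computed. Few Hox CpGs per oocyte, as low as 22, limit all values, and a single methylated CpG can set an oocyte's level.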
